A study of Caenorhabditis elegans with 30 samples.

Results

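The 4 genes described here, *vha-1*, *vha-2*, *vha-3* and *vha-11*, encode subunits of the vacuolar H+-ATPase (V-ATPase) and are 4 of the 19988 genes for which counts could be summed. They were chosen by the estimated counts of *vha-3*, which were 0 in every library of *flor-1(icb93)* animals. The level of *vha-3* in that mutant, and the levels of the others there set against another genotype, are therefore given as a description with no test. The V-ATPase is a rotary proton pump. Its peripheral V1 sector hydrolyses ATP, and its membrane-embedded V0 sector carries protons through a ring of c subunits, also called proteolipids. The enzyme acidifies lysosomes and endosomes in every animal cell, and in *C. elegans* it is prominent in the intestine, the excretory cell and the epidermis. The proteins of *vha-1*, *vha-2* and *vha-3* are c subunits of V0, whereas *vha-11* encodes the C subunit of V1, a stator part that is not in the membrane, so 3 of the 4 genes are membrane subunits.

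The data are 30 RNA-seq libraries of whole L4 animals kept at 20 °C, in 10 groups of 3. Extract of the oomycete *Myzocytiopsis humicola*, or none, was given to wild-type N2 animals, to *old-1(ok1273)* animals, which carry a deletion in the receptor tyrosine kinase gene *old-1*, and to *flor-1(icb93)* animals, with a mutation in the related pseudokinase gene *flor-1*. Animals labelled *old-1p::old-1* carried the extrachromosomal array icbEx308, with OLD-1::GFP under its own promoter, *bus-1p::GFP* and pBJ36, together with the integrated array icbIs4 (pGO4 and pCMH1195) on chromosome IV, and were compared with non-transgenic siblings labelled N2(icbIs5). Animals labelled *dpy-7p::old-1* carried icbEX359, with *old-1* under the epidermal *dpy-7* promoter (pFD20), a hygromycin resistance gene driven by *rps-0* (PIP1303F) and pBJ36, and were compared with a hygromycin control carrying the array icbEx360 with PIP1303F and pBJ36 alone. Extrachromosomal arrays are not carried by every cell of an animal. The strain list of the study gives *flor-1(icb93)* with the reporter array icbIs5 on chromosome IV, which the label of these libraries does not name. The siblings are labelled with icbIs5 but come from the strain of the transgenic animals, which is given with icbIs4, so the array of these libraries is not certain. The part of a reporter array in the level of *vha-3* was not tested.

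Libraries held 19214839 to 38956390 estimated counts. The transgene raised *old-1* to 42.4 to 60.4 CPM (counts scaled to the library total) in *old-1p::old-1* animals, against 0.575 to 0.978 CPM in their siblings, and to 48.8 to 80.0 CPM in *dpy-7p::old-1* animals, against 0.96 to 1.44 CPM in the hygromycin control. In *old-1(ok1273)* animals *old-1* stood at 0.548 to 1.22 CPM over 6 libraries, against 1.55 to 3.44 CPM in N2, and *flor-1* RNA was present at 16.2 to 21.4 CPM in *flor-1(icb93)*. Markers of the intestine, epidermis and excretory cell, the tissues named above, were detected in every group (9, 10 and 8 genes found). Whole-animal RNA cannot tell apart fewer cells of a type and less RNA per cell.

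*vha-1* and *vha-2* lie 400 bases apart on the plus strand of chromosome III, at 9781254 to 9781763 and 9782164 to 9783224 (WBcel235). *vha-3* and *vha-11* lie 892 bases apart on the minus strand of chromosome IV, at 2315460 to 2315945 and 2307815 to 2314567, with *vha-3* upstream. The annotation gives *vha-1* and *vha-3* as single exons of 510 and 486 bases, all coding, with no untranslated region. *vha-2* has a coding length of 486 bases in a transcript of 964 bases, the same coding length as *vha-3*. The proteins have 169 amino acids for *vha-1*, 161 for *vha-2* and 161 for *vha-3*, and 384 for the longer form of *vha-11*.

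The sharing of reads was read from the decimals of the estimated counts, because kallisto gives a fraction only where reads fit more than 1 transcript and are divided. A value within 0.01 of a whole number was called whole. *vha-1* was whole in 30 of 30 libraries, so its reads were not divided with another gene. The estimates of *vha-3* were whole only in the 6 *flor-1(icb93)* libraries, where they were 0, and *vha-11* was whole in the same number of *flor-1(icb93)* libraries and in no other. The sum of *vha-3* and *vha-11* was whole in 30 of 30 libraries, and among 19987 other genes no second partner for *vha-3* reached more than 7. By contrast, the sum of *vha-2* and *vha-3*, the 2 genes with coding regions of equal length, was whole in 0 of 30 libraries. The reads of *vha-2* were instead divided with R10E11.6, which starts inside *vha-2* on the same strand and overlaps its last 219 bases, since the sum of these 2 genes was whole in 29 of 30 libraries. Thus kallisto divided reads between *vha-3* and its downstream neighbour *vha-11*, and no division between *vha-2* and *vha-3* was found. The transcripts of *vha-11* in the files, of 2318 and 2211 bases, are longer than the 1619 bases that the annotation used here gives the longer form, and whether these longer transcripts reach *vha-3* was not analysed here.

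kallisto gave *vha-3* a minor share of the counts of this pair wherever it was detected. Its share of the *vha-3* and *vha-11* counts had a median of 2.66% over the 24 libraries outside *flor-1(icb93)*, from 0.400% in hygromycin control 1 to 6.90% in sibling library B. In untreated *old-1(ok1273)* animals the share was 5.41%, 4.40% and 4.64%, and in *dpy-7p::old-1* animals it was 1.55%, 1.56% and 1.56%. The first of these groups was high and the second was low and almost constant, while the siblings split into 6.31% and 6.90% in A and B and 1.33% in C. In the 6 *flor-1(icb93)* libraries the share was 0, where 3 counts over a group would be 0.00683% with extract and 0.00632% without.

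**Figure D1:**
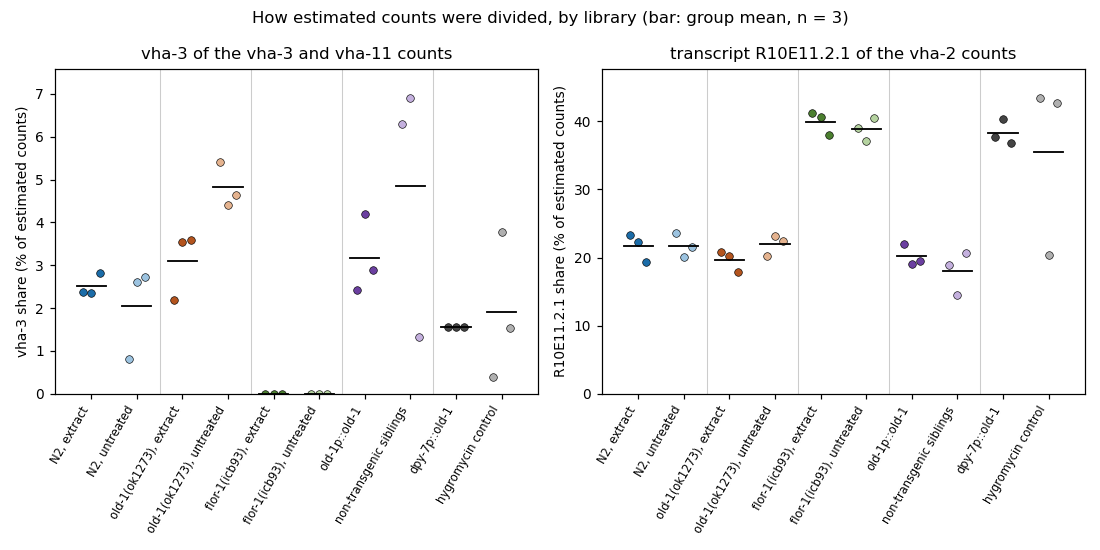
Left: the share of the summed *vha-3* and *vha-11* estimated counts that kallisto gave to *vha-3*, in percent, for each library (points) with the group mean of 3 libraries (bars); the 6 *flor-1(icb93)* libraries are at 0 and the others lie between 0.400% and 6.90%. Right: the share of *vha-2* counts in transcript R10E11.2.1; *flor-1(icb93)*, *dpy-7p::old-1* and 2 of the 3 hygromycin control libraries lie at 36.7% or above, and the other libraries at 23.6% or below.

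*vha-3* had an estimated count of 0 in all 3 extract-treated and all 3 untreated *flor-1(icb93)* libraries. A floor of 3 counts over each group of 3 libraries put this estimate at least 496-fold lower in extract-treated *flor-1(icb93)* animals than in N2. In untreated animals it was at least 376-fold lower. These bounds cover counting error only and take the division of reads with *vha-11* as given. They do not hold if shared reads of *vha-3* were given to *vha-11*. In N2 the estimated counts of *vha-3* were 323.2, 455.8 and 518.9 with extract, and 144.5, 298.1 and 476.9 without. Of 14112 genes with a mean of at least 1 CPM in the other 24 libraries, 5 had 0 counts in all 6 *flor-1(icb93)* libraries (0.0354%), and *vha-3* was the 1 gene among them with counts in each of the other 24 (0.00709%). The others were *ifas-1* at 13.7 CPM on average with counts in 15 of 24 libraries, *mff-2* at 3.60 CPM with 8, F25B3.5 at 2.32 CPM with 17 and Y46H3C.5 at 1.41 CPM with 19. Since this 0 chose the genes, the place of *vha-3* here is a description and no measure of rarity. By single group, genes at 0 with a mean of at least 1 CPM in the other libraries numbered from 2 in *dpy-7p::old-1* to 85 in untreated *old-1(ok1273)*. There were 9 in untreated and 5 in extract-treated *flor-1(icb93)*.

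In every library where *vha-3* was at 0, *vha-11* kept 498 to 571 CPM, so the neighbour that shares its reads stayed at a high level. The sum of *vha-3* and *vha-11*, which does not depend on how reads were divided, was 571, 500.2 and 513 CPM in extract-treated *flor-1(icb93)* animals, against 711, 717 and 707 CPM in extract-treated N2. Without extract it was 498, 512 and 553 CPM in *flor-1(icb93)*, against 679, 589 and 634 CPM in N2. All 6 *flor-1(icb93)* sums thus lay below the N2 sums of the same treatment. In CPM 28.3% of 16850 tested genes were lower without overlap with extract, and 14.2% without. In N2 *vha-3* made up on average 17.9 of 712 CPM of the sum with extract and 12.7 of 634 CPM without. The sum therefore mostly follows *vha-11* and cannot show whether *vha-3* was absent.

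The *flor-1(icb93)* libraries stood apart from all others in fragment length. The gap between transcript length and effective length, which reflects the fragment length kallisto used, had a median of 154.6 to 165.4 bases in the 6 *flor-1(icb93)* libraries and 239.8 to 273.4 bases in the other 24. The effective length of *vha-3*, of 486 bases, was accordingly 320.6 to 331.4 in *flor-1(icb93)* and 219.7 to 246.4 elsewhere. Transcript R10E11.2.1 held 37.1% to 41.1% of the *vha-2* counts in *flor-1(icb93)*, against 14.5% to 23.6% in the 18 libraries of N2, *old-1(ok1273)*, *old-1p::old-1* and sibling animals. The longest *vha-11* transcript, Y38F2AL.3a.1, held 28.2% to 38.9% of *vha-11* counts in *flor-1(icb93)* and 13.2% to 28.9% in the others, with overlap, and the counts of *vha-11* include reads divided with *vha-3*. The high R10E11.2.1 share also occurred in *dpy-7p::old-1* animals (37.7%, 40.4% and 36.7%) and in hygromycin controls 1 and 3 (43.4% and 42.7%). It was 20.4% in hygromycin control 2. *vha-3* was low but present in *dpy-7p::old-1* (7.76, 8.61 and 8.20 CPM). It was 2.58 and 11.3 CPM in hygromycin controls 1 and 3, and 22.6 CPM in control 2. The length gap in these libraries was 242.6 to 273.4 bases, unlike that of *flor-1(icb93)*. The part of these library properties in the 0 of *vha-3* was not tested, and genotype and library type cannot be told apart in *flor-1(icb93)*. The study used 2 sequencing providers, and the sources used here do not say which libraries went to which.

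Outside *flor-1(icb93)*, *vha-3* was the lowest of the 4 genes for its length and the most variable. It ranged from 2.58 to 37.9 CPM with a median of 16.3, 14.7-fold between the extremes, against 1.68-fold for *vha-1*, 1.82-fold for *vha-2* and 2.17-fold for *vha-11*. On the scale of TPM (the same scaling after division by effective length) the medians over the same 24 libraries were 1189 for *vha-2*, 762 for *vha-1*, 224 for *vha-11* and 53.0 for *vha-3*. By these estimates *vha-2* and *vha-1* held nearly all RNA of the c subunit. The estimate of *vha-3* depends on how reads were divided with *vha-11*, so its true share is not known.

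By group mean, *vha-3* was highest in untreated *old-1(ok1273)* animals (32.9 ± 2.98 CPM, SD, n = 3 here and below). It was followed by the siblings (27.4 ± 15.9), extract-treated *old-1(ok1273)* (21.8 ± 5.24), extract-treated N2 (17.9 ± 1.79) and untreated N2 (12.7 ± 6.34). The lower levels were those of *old-1p::old-1* (12.6 ± 2.73), the hygromycin control (12.1 ± 10.02), *dpy-7p::old-1* (8.19 ± 0.428) and *flor-1(icb93)* with 0 in both treatments. Neighbours in this order had overlapping libraries at each step down to *dpy-7p::old-1*, and *dpy-7p::old-1* did not overlap *flor-1(icb93)*. Single libraries differed strongly within a group, with 35.1 and 37.9 CPM in siblings A and B and 9.08 CPM in C, and with 22.6 and 11.3 CPM in hygromycin controls 2 and 3 and 2.58 CPM in 1.

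**Figure D2:**
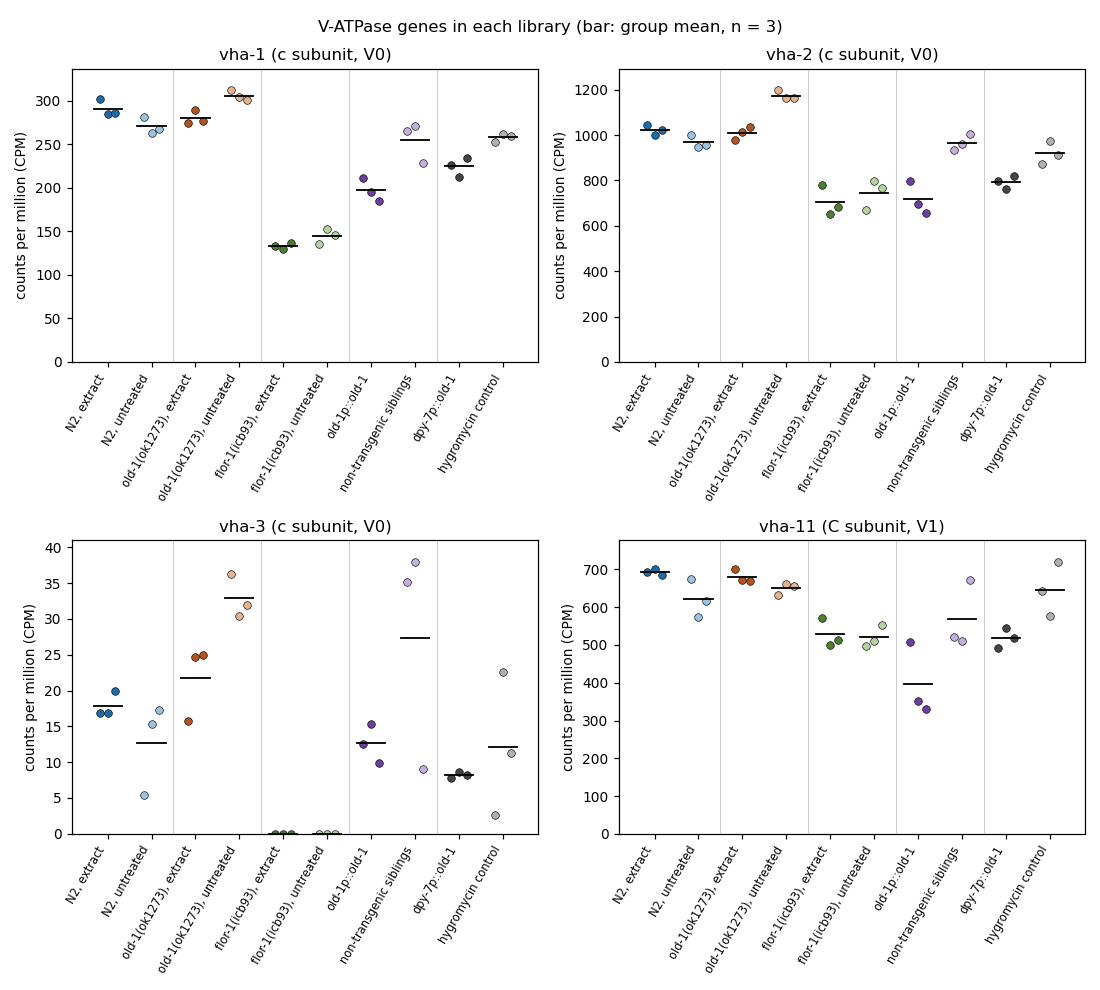
CPM (linear axes from 0) of *vha-1*, *vha-2*, *vha-3* and *vha-11* in each of 30 libraries (points), with the mean of the 3 libraries of a group (bars). *vha-3* is at 0 in all 6 *flor-1(icb93)* libraries and between 2.58 and 37.9 CPM elsewhere, and *vha-1* lies between 130 and 153 CPM in *flor-1(icb93)* and at 185 CPM or above in the others.

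*vha-1*, the c subunit gene next to *vha-2*, was also low in *flor-1(icb93)*. It stood at 133, 130 and 137 CPM in extract-treated *flor-1(icb93)* animals, against 302, 284 and 286 CPM in extract-treated N2. In untreated animals it was 135, 153 and 146 CPM in *flor-1(icb93)*, against 282, 263 and 268 CPM in N2. The groups were well separated, with fitted log2 fold changes of -1.27 with extract and -1.08 without (SE 0.05 each). Its group means then ordered as untreated *old-1(ok1273)* (306 ± 5.80 CPM), extract-treated N2 (291 ± 9.88), extract-treated *old-1(ok1273)* (280.5 ± 7.73), untreated N2 (271 ± 9.87), the hygromycin control (258 ± 4.70), the siblings (255 ± 23.3), *dpy-7p::old-1* (225 ± 11.05), *old-1p::old-1* (197 ± 13.2), and *flor-1(icb93)* untreated (145 ± 8.80) and with extract (133 ± 3.46). Neighbouring groups overlapped at each step except from untreated N2 to the hygromycin control, from *dpy-7p::old-1* to *old-1p::old-1*, and from there to untreated *flor-1(icb93)*.

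*vha-2* was lower in *flor-1(icb93)* by less than *vha-1* was. It stood at 778, 653 and 681 CPM in extract-treated *flor-1(icb93)* animals, against 1045, 1003 and 1023 CPM in extract-treated N2. Without extract it was 672, 796 and 768 CPM in *flor-1(icb93)*, against 999.96, 948 and 956 CPM in N2. The fitted log2 fold changes were -0.69 with extract and -0.55 without (SE 0.07 each), and no *flor-1(icb93)* library reached an N2 library. The ratio of *vha-2* to *vha-1* counts was 4.96 to 5.85 in *flor-1(icb93)* and 3.45 to 4.41 in the other 24 libraries, so the 2 ranges did not overlap.

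*vha-11* stood at 571, 500.2 and 513 CPM in extract-treated *flor-1(icb93)* animals, against 694, 700.5 and 687 CPM in extract-treated N2. Without extract it was 498, 512 and 553 CPM, against 674, 574 and 616 CPM in N2. The fitted log2 fold changes were -0.54 and -0.43 (SE 0.05 each). On the TPM scale this difference was smaller, with means of 231 in *flor-1(icb93)* against 267 in N2 with extract, and 228 against 235.4 without, where the libraries overlapped. For *vha-1* the difference stayed large on that scale, at 345 against 851 TPM with extract and 369 against 764 TPM without. *vha-1*, *vha-2* and *vha-11* were lower in CPM with no overlap in both treatments, while 28.3% of 16850 tested genes were so with extract and 14.2% without, and for *vha-3* this was fixed by the choice of the genes. Median log2 changes of all genes of 400 to under 600 bases, the length class of *vha-1* and *vha-3*, were -0.01 with extract and 0.05 without. In this class 15.4% of genes with extract and 9.5% without lay below -1. Of genes of 2500 bases and over, 5.93% and 1.4% did. Markers of the epidermis, one of the tissues rich in V-ATPase, summed to 2254 to 2478 CPM in *flor-1(icb93)* and 3735 to 6075 CPM in N2 over both treatments, and the mean of log2 CPM over 16 oocyte and yolk genes was 6.75 to 7 in *flor-1(icb93)* and 1.75 to 5.97 in N2. The part of these in the levels of the 4 genes was not tested.

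Extract in N2 animals addressed whether exposure to the oomycete changes these genes. None of the 4 was called, where a call needed p under 0.01 and an adjusted p under 0.1 in edgeR's quasi-likelihood test with Benjamini-Hochberg adjustment, while 35% of 16850 genes were called. At an unadjusted p under 0.05 there was 1 (*vha-11*), and DESeq2 called 0. Treated libraries lay above all untreated ones without overlap for *vha-1*, *vha-2* and *vha-11*, as for 19.9% of all genes. *vha-3* was 16.8, 16.8 and 19.9 CPM with extract, against 5.45, 15.4 and 17.2 CPM without. The low value was that of untreated library A, and untreated library C reached the treated range, with a log2 fold change of 0.44 (SE 0.35, edgeR adjusted p = 0.342). *vha-1*, *vha-2* and *vha-11* had log2 fold changes of 0.06 (SE 0.05), 0.04 (SE 0.07) and 0.12 (SE 0.05), with edgeR adjusted p = 0.37, 0.668 and 0.0753. Without untreated library A the value of *vha-3* was 0.07 (adjusted p = 0.767).

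Untreated N2 libraries differed from each other in genes of oocytes and yolk. The mean of log2 CPM over 16 oocyte and yolk genes was 1.89 in A, 5.41 in B and 5.97 in C, against 1.75 to 1.83 in extract-treated N2. With this mean as a covariate, the log2 fold change of *vha-3* was 1.79 (edgeR adjusted p = 0.000109). Within groups of the extract experiment the covariate varied mainly among the untreated N2 libraries. The adjusted value therefore rests largely on library A set against B and C. Without libraries B and C the log2 fold change was 1.73. The untreated arm of this last fit is library A alone, which is assumed to vary like the libraries of the other groups. Over all 30 libraries *vha-3* was both low and high at lower and at higher values of that mean. At lower means it stood at 5.45 CPM in untreated N2 A (1.89) and 36.2 CPM in untreated *old-1(ok1273)* A (1.55). At higher means it stood at 2.58 CPM in hygromycin control 1 (8.84) and 37.9 CPM in sibling B (8.69). These libraries differ in genotype or experiment, and the relation of *vha-3* to that mean within groups was not tested.

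**Figure D3:**
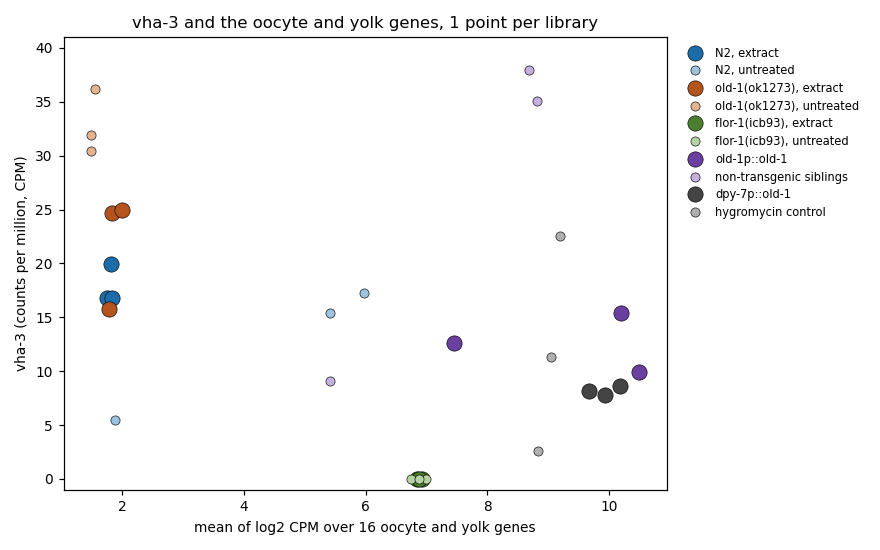
*vha-3* in CPM (y axis) against the mean of log2 CPM over 16 oocyte and yolk genes (x axis), 1 point per library. Large points are the extract-treated groups, *old-1p::old-1* and *dpy-7p::old-1*, and small points are the other groups. The 6 *flor-1(icb93)* libraries lie at 0 CPM between 6.75 and 7 on the x axis, and untreated N2 is spread from 1.89 to 5.97.

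In *old-1(ok1273)* animals *vha-1* and *vha-2* were called lower with extract by small amounts on the count scale. On the TPM scale they were not called, and their libraries overlapped. On log2(TPM + 1) values limma gave 0.03 for *vha-1* (adjusted p = 0.733) and -0.05 for *vha-2* (adjusted p = 0.64), and scaling within classes of transcript length gave 0.11 (edgeR adjusted p = 0.135) and -0.18 (adjusted p = 0.0834). *vha-2* was 978, 1016 and 1036 CPM with extract, against 1198, 1163 and 1163 CPM without, and *vha-1* was 275, 289 and 277 CPM, against 312, 305 and 301 CPM. Treated and untreated libraries did not overlap for either gene, nor, in the same direction, did 19.1% of all genes. The log2 fold changes were -0.26 for *vha-2* (SE 0.07, edgeR adjusted p = 0.00857) and -0.17 for *vha-1* (SE 0.05, adjusted p = 0.029), and 2 of the 4 genes were thus called lower, where 11.3% of all genes were called lower and 12.7% higher. *vha-3* was 15.8, 24.7 and 24.99 CPM with extract, against 36.2, 30.5 and 31.97 CPM without. All 3 treated libraries lay below the untreated ones, but the change of -0.63 (SE 0.34) was not called (adjusted p = 0.214). In a fit of the 2 compared groups alone its adjusted p was 0.00268, with a log2 fold change of -0.64. *vha-11* was 702, 671 and 670.1 CPM with extract, against 633, 661 and 656 CPM without (log2 fold change 0.02, SE 0.05, adjusted p = 0.826), and its treated libraries lay above the untreated ones, as for 25.9% of all genes.

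The extract response of *old-1(ok1273)* differed from that of N2 for *vha-1* by -0.23 (SE 0.08, edgeR adjusted p = 0.026) and for *vha-2* by -0.30 (SE 0.09, adjusted p = 0.0216). These 2 of the 4 genes were called lower, as were 13.1% of all genes, while 18% were called higher. The differences were -1.08 (SE 0.49, adjusted p = 0.107) for *vha-3* and -0.10 (SE 0.07, adjusted p = 0.309) for *vha-11*, neither called. Both calls were lost with the oocyte and yolk covariate (edgeR adjusted p = 0.117 for *vha-1* and 0.068 for *vha-2*). In that fit *vha-3* was called instead (-2.59, adjusted p = 2.38e-05), a value that rests largely on untreated N2 library A. The *vha-1* and *vha-2* calls were also lost on log2(TPM + 1) values (-0.13 and -0.18, limma adjusted p = 0.181 and 0.171). Scaling within length classes ended them too, with *vha-1* at 0.02 (edgeR adjusted p = 0.826) and *vha-2* at -0.25 (adjusted p = 0.0612). Leaving out 1 library in turn ended the *vha-1* call in 10 of 12 cases (all but N2 extract B and *old-1(ok1273)* extract B) and the *vha-2* call in 8 of 12 (those of N2 untreated B or C, N2 extract A or C, *old-1(ok1273)* untreated A, B or C, or extract A), with log2 values of -0.25 to -0.20 and -0.31 to -0.26 in these.

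Untreated *old-1(ok1273)* animals had the highest group mean of each of the 3 c subunit genes in CPM. On the TPM scale this held for *vha-3* (91.1), whereas *vha-1* averaged 770.2 TPM there and 851 TPM in extract-treated N2, and *vha-2* averaged 1283 and 1291 TPM. *vha-3* was 36.2, 30.5 and 31.97 CPM in *old-1(ok1273)*, against 5.45, 15.4 and 17.2 CPM in N2. Every mutant library was above every N2 library, with a log2 fold change of 1.35 (SE 0.35, edgeR adjusted p = 0.0091). *vha-2* was 1198, 1163 and 1163 CPM, against 999.96, 948 and 956 CPM (0.26, SE 0.07, adjusted p = 0.00561), and *vha-1* was 312, 305 and 301 CPM, against 282, 263 and 268 CPM (0.16, SE 0.05, adjusted p = 0.0253). *vha-11* had a log2 fold change of 0.05 (SE 0.05, adjusted p = 0.463). These 3 of the 4 genes were called higher, where 15.7% of all genes were, and did not overlap between genotypes, as was so for 21.9% of all genes in this direction. The *vha-3* call held with each library left out (0.97 to 1.67), with 0.97 without N2 A, and was lost in a fit of the 2 groups alone (1.36, adjusted p = 0.0639). The same 16 genes of oocytes and yolk averaged 1.49 to 1.55 log2 CPM in *old-1(ok1273)* libraries, against 1.89 to 5.97 in N2, and 16 of 16 were called lower. With it as a covariate *vha-3* was at 2.82 (edgeR adjusted p = 1.75e-06), *vha-2* at 0.28 (adjusted p = 0.0427) and *vha-1* at 0.16 (adjusted p = 0.17). *vha-3* alone was called. Here too the covariate varied within groups mainly in untreated N2, so the *vha-3* value rests largely on N2 library A. This comparison shares its untreated N2 libraries with that of extract in N2, and its *old-1(ok1273)* libraries with that of extract in *old-1(ok1273)*.

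Transcript length moved with this comparison. The median log2 change of all genes was 0.27 for those whose longest transcript had 400 to under 600 bases, 0.17 for 600 to under 900, 0.03 for 900 to under 1500 and -0.26 for 2500 and over. *vha-1* and *vha-3* belong to the first of these classes and *vha-2* to the class from 900 bases. When libraries were scaled within length classes, the value of *vha-1* turned to -0.15 (edgeR adjusted p = 0.0197), while *vha-2* stayed at 0.21 (adjusted p = 0.0234) and *vha-3* at 1.06 (adjusted p = 0.0241). On log2(TPM + 1) values, limma gave 0.01 for *vha-1* (adjusted p = 0.844), 0.11 for *vha-2* (adjusted p = 0.196) and 1.34 for *vha-3* (adjusted p = 0.00178). Each single library left out ended the *vha-1* call in the untreated comparison (0.14 to 0.18). In the extract comparison of *old-1(ok1273)* the *vha-1* call was lost without untreated A, B or C or extract A or C (-0.18 to -0.14), and the *vha-2* call without untreated A (-0.23, adjusted p = 0.0498).

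With extract, *old-1(ok1273)* and N2 animals did not differ by a called change in any of the 4 genes, where 17.2% of 16850 genes were called. *vha-3* was 15.8, 24.7 and 24.99 CPM in *old-1(ok1273)*, against 16.8, 16.8 and 19.9 CPM in N2, and these ranges overlapped (log2 fold change 0.27, SE 0.34, edgeR adjusted p = 0.654). The others had log2 fold changes of -0.08 for *vha-1*, -0.04 for *vha-2* and -0.05 for *vha-11* (SE 0.05, 0.07 and 0.05), with adjusted p = 0.376, 0.729 and 0.562. At an unadjusted p under 0.05 there were 0 of the 4, and DESeq2 called 0.

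None of the 3 members with counts was called for extract in *flor-1(icb93)*, where edgeR called 0 of 16850 genes (0%), 644 genes had an unadjusted p under 0.05 and DESeq2 called 34. The log2 fold changes were -0.13 (SE 0.05) for *vha-1*, -0.10 (SE 0.07) for *vha-2* and 0.01 (SE 0.05) for *vha-11*, each with an edgeR adjusted p of 1. Of the 3, *vha-1* had an unadjusted p under 0.05. Treated and untreated libraries overlapped for all of them. The response of *flor-1(icb93)* minus that of N2 was -0.20 (SE 0.08, adjusted p = 0.0688) for *vha-1*, -0.14 (SE 0.09, adjusted p = 0.313) for *vha-2* and -0.11 (SE 0.07, adjusted p = 0.274) for *vha-11*, and none of the 3 was called, where 23.9% of genes were. Of these, *vha-1* alone had an unadjusted p under 0.05, and DESeq2 called none of the 3. Without untreated *flor-1(icb93)* A the *vha-1* value was -0.26 (adjusted p = 0.0241) and was called.

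In *old-1p::old-1* animals the fitted changes of all 4 genes relative to the siblings were negative, and none was called, where edgeR called 19 of 16285 genes (0.117%). *vha-2* was 796, 697 and 657 CPM in *old-1p::old-1*, against 936, 960 and 1006 CPM in siblings, and *vha-1* was 212, 195 and 185 CPM, against 265, 271 and 228 CPM. Neither gene overlapped between groups, with log2 fold changes of -0.49 (SE 0.13, edgeR adjusted p = 0.195) and -0.43 (SE 0.16, adjusted p = 0.244). *vha-11* was 508, 351 and 332 CPM, against 521, 511 and 671 CPM (-0.59, SE 0.20, adjusted p = 0.234), again without overlap, and 10.1% of all genes were lower without overlap. *vha-3* was 12.6, 15.4 and 9.90 CPM, against 35.1, 37.9 and 9.08 CPM (-1.17, SE 0.53, adjusted p = 0.269), and sibling C lay below all 3 transgenic libraries. At an unadjusted p under 0.05 there were 3 of 4, and 3126 of 16285 genes. DESeq2 called 1 of the 4, *vha-2* (-0.52, adjusted p = 0.0402), and 1451 genes in all.

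Libraries *old-1p::old-1* A and sibling C stood apart from their groups in the oocyte and yolk genes, with means of 7.45 against 10.19 and 10.50 in *old-1p::old-1* B and C, and of 5.41 against 8.81 and 8.69 in siblings A and B. Without *old-1p::old-1* A edgeR called *vha-1* (-0.60), *vha-2* (-0.69) and *vha-11* (-0.91), with adjusted p = 0.0355, 0.0188 and 0.021. Over all genes that fit also called far more than the 19 of 16285 called with every library, as given in the closing section. Intestine markers summed to 1054 to 1897 CPM in *old-1p::old-1* animals and 2514 to 2964 CPM in siblings, and epidermis markers to 636 to 2852 CPM and 2613 to 3730 CPM. The part of these marker genes in the differences was not tested.

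In *dpy-7p::old-1* animals *vha-11* fell relative to the hygromycin control. It was 491, 544 and 518 CPM, against 643, 576 and 719 CPM, with no overlap (log2 fold change -0.43, SE 0.12, edgeR adjusted p = 0.0128). This 1 of the 4 genes was called lower, where 20.9% of 16141 genes were. *vha-1* was 226, 213 and 234.8 CPM, against 253, 262 and 259.9 CPM (-0.31, SE 0.12, adjusted p = 0.0471), and *vha-2* was 797, 761 and 819 CPM, against 874, 975 and 912 CPM (-0.33, SE 0.14, adjusted p = 0.0753). Neither overlapped its control, like 23.3% of all genes in this direction, and neither passed the limit on p. At an unadjusted p under 0.05 there were 3 of the 4, and 9713 of 16141 genes, and DESeq2 called 1 of the 4 and 7647 genes. The call of *vha-11* was lost without *dpy-7p::old-1* 1, 2 or 3 or hygromycin control 3 (-0.44 to -0.36), and with the oocyte and yolk covariate (-0.55, adjusted p = 0.386). *vha-3* was 7.76, 8.61 and 8.20 CPM, against 2.58, 22.6 and 11.3 CPM. It was steady in the transgenic animals and spread over the control (-0.74, SE 0.58, adjusted p = 0.301), and it was 0.20 without hygromycin control 2 and -1.22 without hygromycin control 1 (adjusted p = 0.00878). Intestine markers, which mark a tissue rich in V-ATPase, summed to 1645 to 1756 CPM in *dpy-7p::old-1* animals and 2798 to 3058 CPM in the control, with 8 of 9 measured called lower, and 8 of the 16 oocyte and yolk genes were called higher. Their part in the V-ATPase changes was not tested.

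The 4 genes were set beside the other 17 V-ATPase genes of 3 lists, 9 of V1, 10 of V0 and 2 accessory in all. In *old-1(ok1273)* animals given extract, 8 of the 21 genes were called lower and 1 higher, with a median log2 change of -0.10 against -0.01 over all genes, of which 11.3% were called lower and 12.7% higher. On log2(TPM + 1) values limma called 0 lower and 5 higher, with a median of 0.10 against 0.12 over all genes, of which 22.2% were higher, and scaling within length classes left 5 lower and 0 higher. Those with the smallest adjusted p were *vha-10*, the G subunit of the V1 stator (-0.20, SE 0.04, edgeR adjusted p = 0.00304), *unc-32*, an a subunit of V0 (0.23, SE 0.05, adjusted p = 0.00397), *vha-14*, the D subunit of the rotor (-0.20, SE 0.04, adjusted p = 0.00404), and *vha-9*, the F subunit (-0.23, SE 0.06, adjusted p = 0.00816). The response of *old-1(ok1273)* was called lower than that of N2 for 9 of 21 and higher for 0, where 13.1% of all genes were lower and 18% higher. The 9 became 6 with scaling within length classes, 2 with the oocyte and yolk covariate and 1, with 2 higher, on log2(TPM + 1) values. Leading were *vha-17*, the e subunit (-0.36, SE 0.08, adjusted p = 0.00337), *vha-14* (-0.28, SE 0.06, adjusted p = 0.00367), *vha-10* (-0.24, SE 0.06, adjusted p = 0.0081) and *vha-9* (-0.32, SE 0.08, adjusted p = 0.00944). In N2 given extract, 1 was called higher, *unc-32* (0.16, SE 0.05, adjusted p = 0.0203), and 1 lower, *vha-18*, an H subunit (-0.49, SE 0.15, adjusted p = 0.0142), and the median was 0.09 against -0.01, where 14.7% of all genes were called higher and 20.4% lower. DESeq2 called 4 higher and 1 lower, where 15.5% and 20.9% of all genes were. On log2(TPM + 1) values limma called 6 higher and 0 lower, where 17.2% and 14.1% were. A fit of the compared groups alone called 0 in either direction, where 8.13% of all genes were higher and 6.28% lower.

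In untreated animals 10 of the 21 genes were called higher in *old-1(ok1273)* than in N2 and 1 lower, with a median of 0.11 against -0.03 over all genes, of which 15.7% were called higher and 23.3% lower. In this comparison the median log2 change was 0.27 over genes of 400 to under 600 bases and 0.17 over those of 600 to under 900, and 16 of 16 oocyte and yolk genes were lower. With scaling within length classes 9 V-ATPase genes were higher and 2 lower, with the oocyte and yolk covariate 3 and 1, and on log2(TPM + 1) values 1 and 3. The lower one was *unc-32* (-0.46, SE 0.05, edgeR adjusted p = 9.25e-06), and the leading higher ones were *vha-10* (0.25, SE 0.04, adjusted p = 0.000336), *vha-14* (0.21, SE 0.04, adjusted p = 0.00139) and *vha-20*, the homologue of the prorenin receptor (0.24, SE 0.05, adjusted p = 0.00139). *unc-32* was also the 1 gene called with extract (-0.39, SE 0.05, adjusted p = 9.5e-05), where none was higher and 10.9% of all genes were lower. Within the V0 c subunits and their relative the c″ subunit gene *vha-4*, the log2 changes in untreated animals were 1.35 for *vha-3*, 0.26 for *vha-2*, 0.16 for *vha-1* and 0.11 for *vha-4* (SE 0.05, adjusted p = 0.0689).

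In *dpy-7p::old-1* animals 8 of the 21 genes were called lower and 2 higher, with a median of -0.35 against -0.09, where 20.9% of all genes were called lower and 24.9% higher. With the oocyte and yolk covariate, which did not overlap between these groups, 0 were called lower and 1 higher. The median was then -0.49 against 0.09 over all genes. The 2 higher ones were *vha-18* (1.26, SE 0.11, edgeR adjusted p = 2.88e-05) and *vha-7*, an a subunit (0.63, SE 0.10, adjusted p = 0.000811). The lower ones included *vha-6*, the a subunit of the intestine (-0.77, SE 0.14, adjusted p = 0.00147), and *vha-19*, an accessory subunit related to Ac45 (-0.46, SE 0.11, adjusted p = 0.00633). In *old-1p::old-1* animals 0 of 21 were called in edgeR, with a median of -0.48 against 0.11. At an unadjusted p under 0.05 there were 16 of them, and 3126 of 16285 genes in all. DESeq2 called 7 of the 21 lower and 1 higher, where 5.43% of all genes were called lower and 3.48% higher. In *flor-1(icb93)* given extract 0 of the 20 with counts were called, and 2 had an unadjusted p under 0.05, as did 644 of 16850 genes. The extract response of *flor-1(icb93)* minus that of N2 was called lower for *vha-20* (-0.21, SE 0.07, adjusted p = 0.0359) and for no other of the 20, where 9.48% of all genes were lower. Scaling within length classes and the oocyte and yolk covariate each left 0 called. Counted over 21 genes, *vha-3* included, DESeq2 called 4 lower and 1 higher, where 10.4% and 15.7% of all genes were. On log2(TPM + 1) values limma called 3 lower and 0 higher, where 9.57% and 6.14% were.

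**Figure D4:**
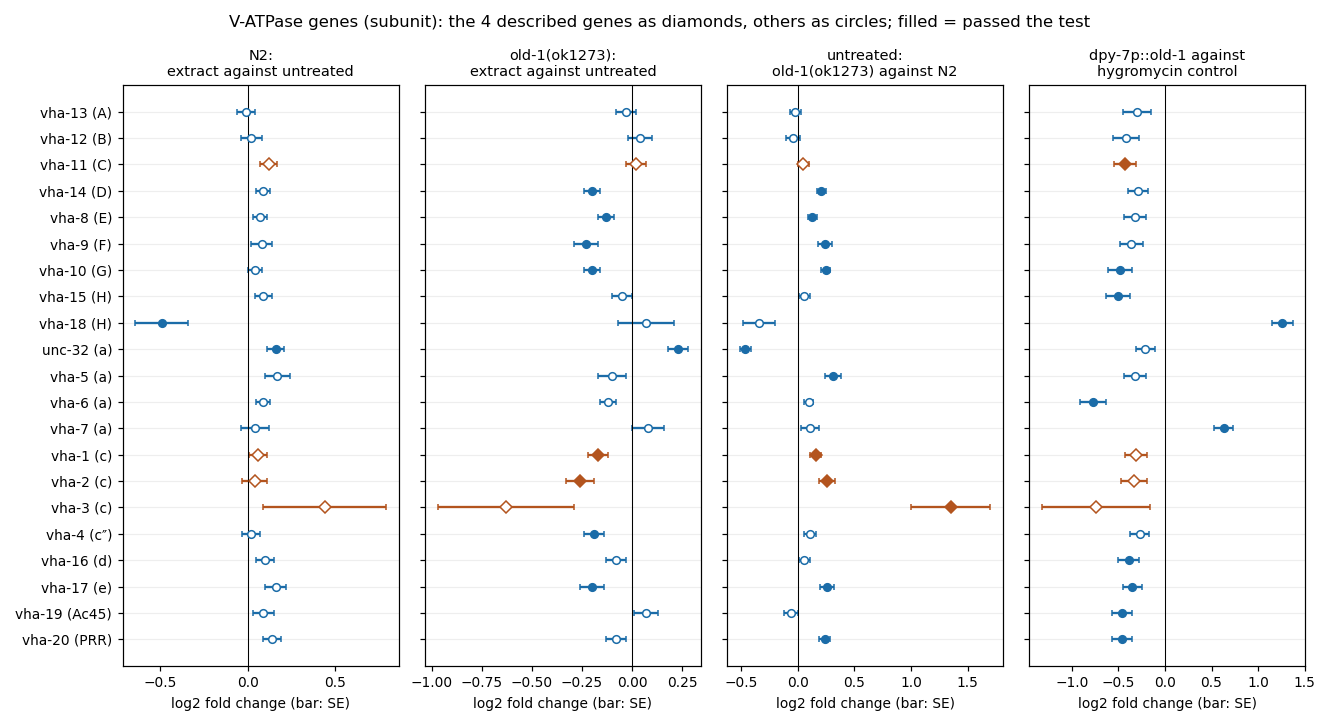
Fitted log2 fold changes (x axis, bars: SE) of 21 V-ATPase genes, named with their subunit, in 4 comparisons. Diamonds are *vha-1*, *vha-2*, *vha-3* and *vha-11*, circles the other genes, and filled symbols passed the test; in untreated *old-1(ok1273)* animals *vha-3* has the highest value of the list (1.35), and in *dpy-7p::old-1* animals *vha-18* (1.26) and *vha-7* (0.63) are the genes called higher.

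In *flor-1(icb93)* set against N2, as a description, the median log2 change of the 20 V-ATPase genes with counts was -0.40 with extract and -0.28 without, against -0.01 and 0.04 over all genes. *vha-1* was the lowest of them, followed by *vha-10* at -0.96 with extract, while *vha-5* was at -0.92 and *vha-18*, at 1.45, and *vha-9*, at 0.19, were the ones above 0. In untreated animals *vha-1* was again the lowest at -1.08, with *vha-10* at -0.79 and *vha-5* at -0.68, and *vha-18* at 0.87 and *vha-9* at 0.30 were above 0. These values are on the count scale. In mean TPM, 15 of the 21 genes were higher in untreated *flor-1(icb93)* than in N2 and 6 lower, and with extract 8 were higher and 13 lower. Without overlap in TPM, 4 were lower (*vha-1*, *vha-2*, *vha-3* and *vha-10*) and 4 higher in untreated animals, where 11.8% of 14558 genes with a mean of at least 1 TPM were lower and 50.3% higher. With extract 10 were lower and 4 higher, where 24.8% of these genes were lower and 51.3% higher.

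Genes of the lysosome, where the V-ATPase acts, and of mTORC1, the growth kinase complex that works at its surface, were also counted, and the shares of all genes called are given beside the counts. Of 20 lysosome genes, 7 were called higher and 4 lower in N2 given extract, where 14.7% of all genes were higher and 20.4% lower, with *rab-7*, a late endosome GTPase (0.54, SE 0.07, edgeR adjusted p = 1.85e-05), and *scav-3*, a lysosomal membrane protein (0.52, SE 0.07, adjusted p = 5.16e-05) leading. In *old-1(ok1273)* given extract, 1 was higher and 6 lower, where 12.7% of all genes were higher and 11.3% lower, led by *asp-4*, an aspartyl protease (-0.42, SE 0.05, adjusted p = 1.47e-05). Of 13 mTORC1 genes, 3 were higher and 0 lower in N2 with extract, and 4 were higher and 4 lower in *old-1(ok1273)*, where *let-363*, the worm TOR kinase, was at 0.68 (SE 0.07, adjusted p = 4.55e-06). In *dpy-7p::old-1* animals 3 lysosome genes were higher and 6 lower, and 5 mTORC1 genes were higher and 0 lower, where 24.9% of all genes were higher and 20.9% lower. In *old-1(ok1273)* against N2 with extract 0 lysosome genes were higher and 10 lower, with a median of -0.26, and 0 mTORC1 genes were higher and 2 lower, where 10.9% of all genes were lower.

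Over the 24 libraries outside *flor-1(icb93)*, the genes whose log2(CPM + 0.5) followed each member most closely among 8899 genes with a mean of at least 10 CPM were compared, as a description of libraries that share depth and strain. *vha-1* was nearest to F59E11.5 (Pearson r = 0.955), *vha-4* (0.952), *gpd-2* (0.948), *ucr-2.1* (0.948) and *nuo-2* (0.94). *vha-2* was nearest to *aco-1* (r = 0.966), *rpl-11.2* (0.953), *ucr-2.1* (0.948), *vha-20* (0.947) and *asb-2* (0.946), and its r with *vha-1* was 0.939. *vha-11* was nearest to F49E2.5 (r = 0.94), F49E2.2 (0.938), *kin-1* (0.936), *vha-8*, the E subunit of V1 (0.933), and *unc-96* (0.933). *vha-3* had lower values throughout, with *rps-20* (r = 0.818), Y37E3.8 (0.811), *nduc-2* (0.803), *prdx-2* (0.799) and *ubq-2* (0.791) nearest. Its r was 0.529 with *vha-2*, 0.496 with *vha-1* and 0.099 with *vha-11*. *vha-3* and *vha-11* are neighbours that share reads, and a shared read given to 1 of them is withheld from the other. The part of this division in their r was not tested.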

How the data were processed

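Per the labels and the study's methods, RNA of L4 animals was extracted with TRIzol and quantified by the authors with kallisto on the WormBase WS283 transcriptome and tested with sleuth. Versions are not given in the sources used here. The deposited files hold kallisto's estimated counts of 37058 transcripts per library, unnormalized, with length and effective length in bases. Transcripts were matched to genes with the Ensembl annotation of WBcel235, which was used for coordinates; of 30413 transcripts matched by name, 52.8% have the same length in both, so transcript models differ. The labels do not say whether the 3 libraries of a group came from separate cultures, so p-values measure the spread between these libraries, which may be technical. No replicate pair agreed within sampling noise.

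Sums per gene were rounded, and genes were kept by filterByExpr (at least 5 counts in enough libraries, 15 in all). The quasi-likelihood test of edgeR 4.0.16 with TMM scaling (R 4.3.3) was fitted to the 18 extract libraries together, leaving 12 residual degrees of freedom, and to the 6 libraries of each overexpression experiment, leaving 4. Calls needed p under 0.01 and a Benjamini-Hochberg adjusted p under 0.1 over all genes tested, as in the study. CPM were computed from total counts, and TPM from counts and effective lengths; log2 changes are on the scale of the fit. Floors (3 counts per group) cover counting error only, and not the division of reads between genes. The test was checked on simulated data. The members, gene lists and rules were chosen with earlier results of these data known. Named genes were the 4 members, up to 4 called V-ATPase genes per comparison with the smallest adjusted p, the 5 genes most correlated with each member, up to 8 genes at 0 in *flor-1(icb93)*, and up to 2 called genes of other lists; *vha-4* and, in the *flor-1(icb93)* description, *vha-5*, *vha-9*, *vha-10* and *vha-18* were chosen after their values were seen. Alternatives were DESeq2 1.42.0, RLE size factors, no filter, a mean of at least 1 CPM, a replicate block, *vha-2* and *vha-3* summed, limma 3.58.1 on single transcripts (pseudocount 0.5) and on log2(TPM + 1), an adjusted p under 0.05, each library left out, only the compared groups, an oocyte and yolk covariate, and no untreated N2 B and C. Added after seeing the data were *vha-3* and *vha-11* summed, *vha-2* and R10E11.6 summed, and TMM within length classes.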

Additional observations from a re-analysis of the deposited data

Results flagged for a closer look

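The extract response of *old-1(ok1273)* differed from that of N2, by the interaction term of the edgeR fit, for 9 V-ATPase genes, each with a lower value in *old-1(ok1273)*. Among the 4 members these were *vha-1* (-0.23) and *vha-2* (-0.30). The others were *vha-14* (-0.28), *vha-8* (-0.20), *vha-9* (-0.32), *vha-10* (-0.24), *vha-6* (-0.21), *vha-17* (-0.36) and *vha-20* (-0.22), all as log2 differences. These are 9 of 21 V-ATPase genes, where 13.1% of all genes were called lower and 18% higher. The 9 became 6 with scaling within length classes and 2 with the oocyte and yolk covariate. On log2(TPM + 1) values 1 was lower and 2 were higher. The response of *flor-1(icb93)* differed from that of N2 for *vha-20* (-0.21), where 9.48% of all genes were called lower. That call was lost with scaling within length classes and with the oocyte and yolk covariate. The untreated N2 libraries enter every one of these differences, and libraries B and C stand apart from A in the oocyte and yolk genes.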

How the results depend on the processing

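The number of the 4 members called was recomputed under each alternative. In the main analysis it was 0 for extract in N2, 2 for extract in *old-1(ok1273)*, 0 for extract in *flor-1(icb93)*, 2 and 0 for the responses of *old-1(ok1273)* and *flor-1(icb93)* minus that of N2, 3 and 0 for *old-1(ok1273)* against N2 untreated and with extract, 0 for *old-1p::old-1* and 1 for *dpy-7p::old-1*. DESeq2 gave 1 for *old-1p::old-1*. RLE size factors gave 1 for extract in *old-1(ok1273)* and 1 for its response minus that of N2. The oocyte and yolk covariate gave 1 each for extract in N2, the *old-1(ok1273)* response, untreated *old-1(ok1273)* and *old-1p::old-1*, and 0 for *dpy-7p::old-1*, and leaving out untreated N2 B and C gave 1 for the first 3. limma on log2(TPM + 1) gave 1 for extract in N2, for extract in *old-1(ok1273)*, for the *flor-1(icb93)* response and for untreated *old-1(ok1273)*, and 0 for the *old-1(ok1273)* response. limma on single transcripts gave 1 for extract in N2 and for both responses, and 0 for extract in *old-1(ok1273)*. TMM within length classes gave 0 for extract in *old-1(ok1273)* and for its response. It turned the *vha-1* values to 0.11, 0.02 and -0.15 for extract in *old-1(ok1273)*, its response and untreated *old-1(ok1273)*, and log2(TPM + 1) turned the first to 0.03. Leaving out 1 library gave 0 to 2 for extract in *old-1(ok1273)*, 0 to 2 for its response, 0 to 1 for the *flor-1(icb93)* response, 0 to 3 for *old-1p::old-1* and 0 to 2 for *dpy-7p::old-1*. It gave 0 throughout for extract in N2, extract in *flor-1(icb93)* and *old-1(ok1273)* against N2 with extract, and 2 throughout for untreated *old-1(ok1273)*. Fits without a library hold fewer libraries, and otherwise the cause was not tested.

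Replicate numbers did not pair the libraries, since the correlations of same-numbered libraries ranged from -0.47 to 0.36 and were not above 0.1 for every pair in any comparison. With the replicate block 1 member was called for the *old-1(ok1273)* response and 0 for *dpy-7p::old-1*, and not every library correlated best with its own number. Genes called over the whole table differed by more than 1.5 times from the main 5901 for extract in N2 with the covariate (2450), without untreated B and C (2609) and with only the compared groups (2275). They did so from 5232 for the *old-1(ok1273)* response and from 7396 for *dpy-7p::old-1* with the covariate (3394 and 1680), and from 6577 for untreated *old-1(ok1273)* with only the compared groups (3562). From 4020 for the *flor-1(icb93)* response they differed with the covariate (1971), log2(TPM + 1) (2647), single transcripts (2284) and no untreated N2 B and C (2096), and from 2890 for *old-1(ok1273)* against N2 with extract with the covariate (4501) and no untreated N2 B and C (4667). For extract in *flor-1(icb93)*, with 0, they were 34 with DESeq2, 67 with single transcripts, 33 with only the compared groups, 6 with the covariate and 2 with log2(TPM + 1). For *old-1p::old-1*, with 19, they were 1451 with DESeq2, 1962 with the covariate, 65 with log2(TPM + 1), 53 with single transcripts, 9 at an adjusted p under 0.05, 0 with the block and 3750 without *old-1p::old-1* A. Summing *vha-3* with *vha-11*, *vha-2* with R10E11.6 or *vha-2* with *vha-3* left the count of members called at the main value or, for untreated *old-1(ok1273)*, at 2 or more. Over single members, 636 values kept direction and side of the threshold, 60 lost the call, 19 gained one and 4 changed sign.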
